A study of Homo sapiens with 8 samples.

Results

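The genes described here are the ligands and receptors of the tumour necrosis factor (TNF) superfamily and the TRAF adaptors, in MDA-MB-231 breast cancer cells that make oestrogen receptor beta (ERβ). They were chosen by symbol, as TNFSF and TNFRSF names, TRAF1 to TRAF7 and 13 named genes (TNF, LTA, LTB, LTBR, FAS, FASLG, CD40, CD40LG, CD27, CD70, EDAR, EDA2R and NGFR). That rule found 53 of the 31412 gene rows on the array, namely 18 ligands, 28 receptors and 7 TRAFs. MDA-MB-231 is a triple-negative line, and the cells carried an ERβ gene switched on by doxycycline and were kept under blasticidin S and zeocin. All cultures were grown in charcoal-stripped serum with 100 ng/ml doxycycline, so the controls had ERβ too. For 5 days 3 cultures received ethanol vehicle and 3 received 1 nM 17-beta estradiol. A second RNA sample was hybridised for vehicle culture 3 and estradiol culture 1, which gave 8 arrays. Arrays of 1 culture were averaged before the main test. There was no culture without doxycycline, so a response that needs ERβ and one that does not cannot be told apart. Nothing given in the labels says that cultures differed in passage or day, or whether the line is 1 clone, and p-values therefore measure the spread between these cultures, which may be technical.

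TNF superfamily ligands are made as trimers at the cell surface, from which many are shed, and they cluster receptors on the same or neighbouring cells. Receptors with a death domain can recruit FADD and caspase-8 and start apoptosis, whereas other receptors bind TRAF proteins and switch on NF-kB and MAP kinases. Decoy receptors bind ligand without passing on a signal. In breast cancer cells the family is known for TNF and TRAIL signalling, which can lead to inflammatory gene expression or to death of the cell.

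The labelled identity was checked against marker genes. Transcripts of VIM, AXL, CAV1 and CD44 were detected on all 8 arrays, and EGFR on 3 vehicle arrays and no estradiol array. The EGFR mean was log2 7.76 in vehicle and 7.35 in estradiol, a change of -0.41. Its row met the detection filter of the test through the vehicle arrays alone, so no adjusted p is given. ESR1 and PGR were detected on no array and ERBB2 on 1, with means of log2 7.81 in vehicle and 7.84 in estradiol. The EGFR and ERBB2 rows combine several probes and lay above the weakest detected single-probe signal on all 8 arrays. In such rows the detection p need not follow the signal, and neither gene was shown to be absent. Of 8 markers of lymphoid and myeloid cells, which make many ligands of this family, 5 were detected on no array (PTPRC, CD3E, CD3D, MS4A1 and ITGAM), as were the 3 endothelial markers PECAM1, VWF and CDH5 and 3 of 4 fibroblast markers (PDGFRA, DCN and LUM). The other fibroblast marker, PDGFRB, was detected on all 8 arrays and fell by 0.48 on the log2 scale (limma adjusted p = 0.0217), and the summed signal of the 4 was 162.1 to 202.1 on vehicle and 142.2 to 155.3 on estradiol arrays. CD14 was detected on 4 arrays and CSF1R on 3, and CD68, a lysosomal protein gene, was detected on all 8 and rose by 0.41 (limma adjusted p = 0.0209). The summed signal of the 8 markers was 654.0 to 801.5 on vehicle and 843.8 to 925.8 on estradiol arrays, and the part of these markers in the results below was not tested. The vehicle 3 repeat array was unlike the others, with a correlation of 0.980 to the first array of its own culture against 0.989 to 0.992 between the first arrays of the vehicle cultures. Its values are therefore given singly below, and the family's calls lost without it are named.

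Of the 53 genes 17 were detected on all 8 arrays (detection p under 0.01), 15 on 1 to 7 arrays and 21 on none. The 21 included FAS and its ligand gene FASLG, CD40LG, NGFR, the RANK gene TNFRSF11A with its ligand gene TNFSF11, and the B-cell receptor genes TNFRSF13B, TNFRSF13C and TNFRSF17. The remaining undetected ligands were TNFSF8, TNFSF13, TNFSF14 and TNFSF18, the remaining receptors were CD27, EDAR, EDA2R, TNFRSF8, TNFRSF18 and TNFRSF19, and the TRAFs were TRAF5 and TRAF7. A further 5 genes (CD70, TNFRSF4, TNFRSF6B, TNFRSF10D and TNFRSF25) were detected on 1 array each. Detection in at least 3 arrays was required for a test, which 27 of the 53 passed. In rows that combine several probes, 20 of the 53 (FAS among them), the detection p need not follow the signal, and an undetected row there is not a measured absence. TNFSF14, with raw signals of 152 to 198, and TNFRSF25 lay at or above the lowest detected single-probe level on all 8 arrays and were still set aside.

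**Figure D1:**
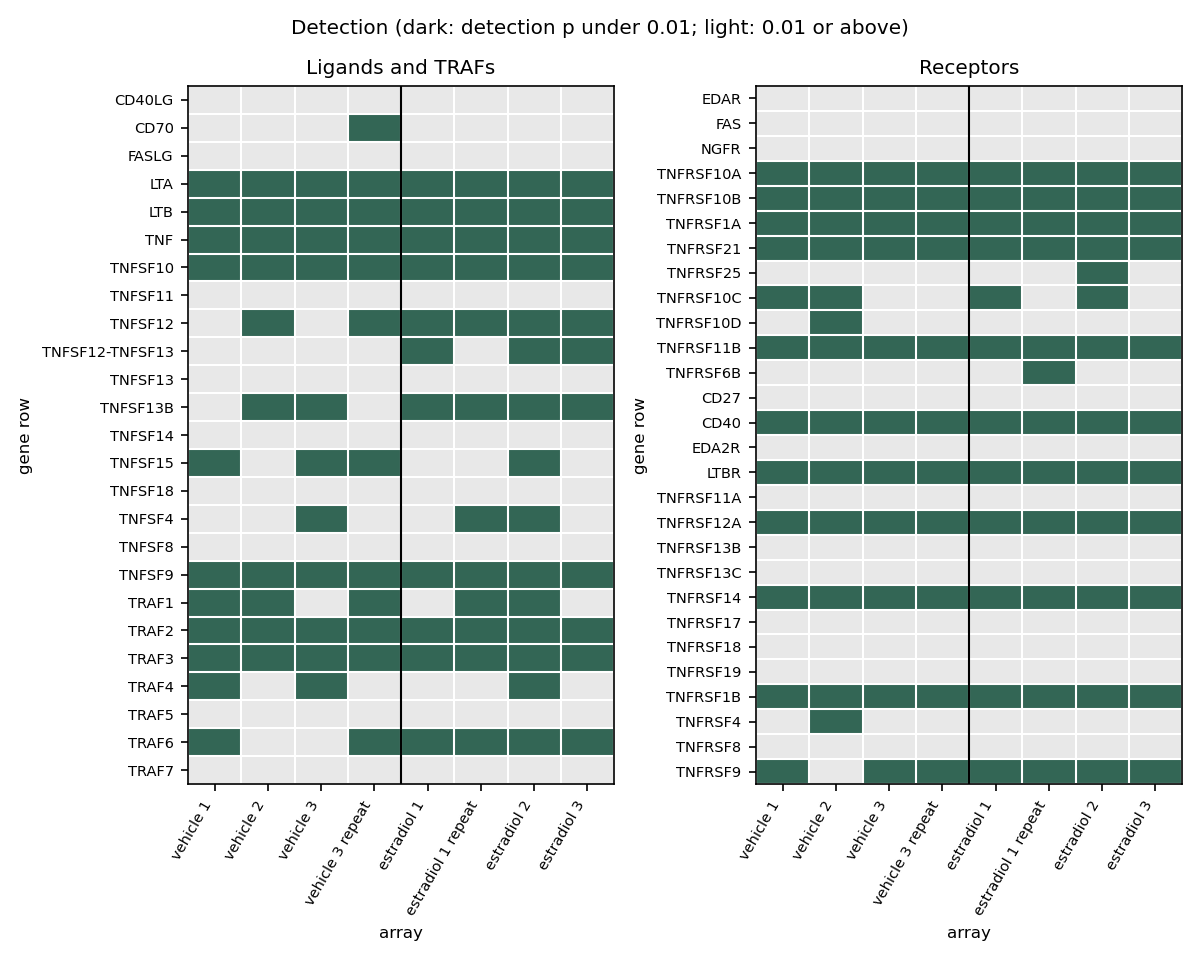
Detection of the 53 genes (rows) on the 8 arrays (columns), with ligands and TRAFs on the left and receptors on the right. Dark cells have a detection p under 0.01, the black line parts vehicle from estradiol arrays, and 17 genes are dark throughout while 21 are light throughout.

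Estradiol changed 8 of the 27 tested genes at an adjusted p under 0.05, with 3 higher and 5 lower. LTB, which encodes the membrane-anchored ligand lymphotoxin beta, rose 2.07-fold, TNFRSF1B, which encodes the TNF receptor without a death domain, 1.72-fold, and TNFSF9, which encodes a ligand that costimulates T cells, 1.64-fold. TNFRSF11B, the gene of the secreted decoy receptor osteoprotegerin, fell 1.76-fold, the adaptor gene TRAF1 1.60-fold and the receptor gene CD40 1.43-fold. The adaptor gene TRAF3 fell 1.41-fold and TNFRSF10B, the gene of a TRAIL death receptor, 1.32-fold. The test was limma's moderated test over all 11191 tested rows with Benjamini-Hochberg adjustment, in which 27.7% of rows were called (13.6% higher and 14.2% lower). The family's share of 29.6% was near that background. Its median log2 change was -0.05 against -0.02 over all tested rows, and its median size of change 0.25 against 0.22. Since the RNA came from whole cultures, fewer cells making a transcript and less of it per cell cannot be told apart.

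**Figure D2:**
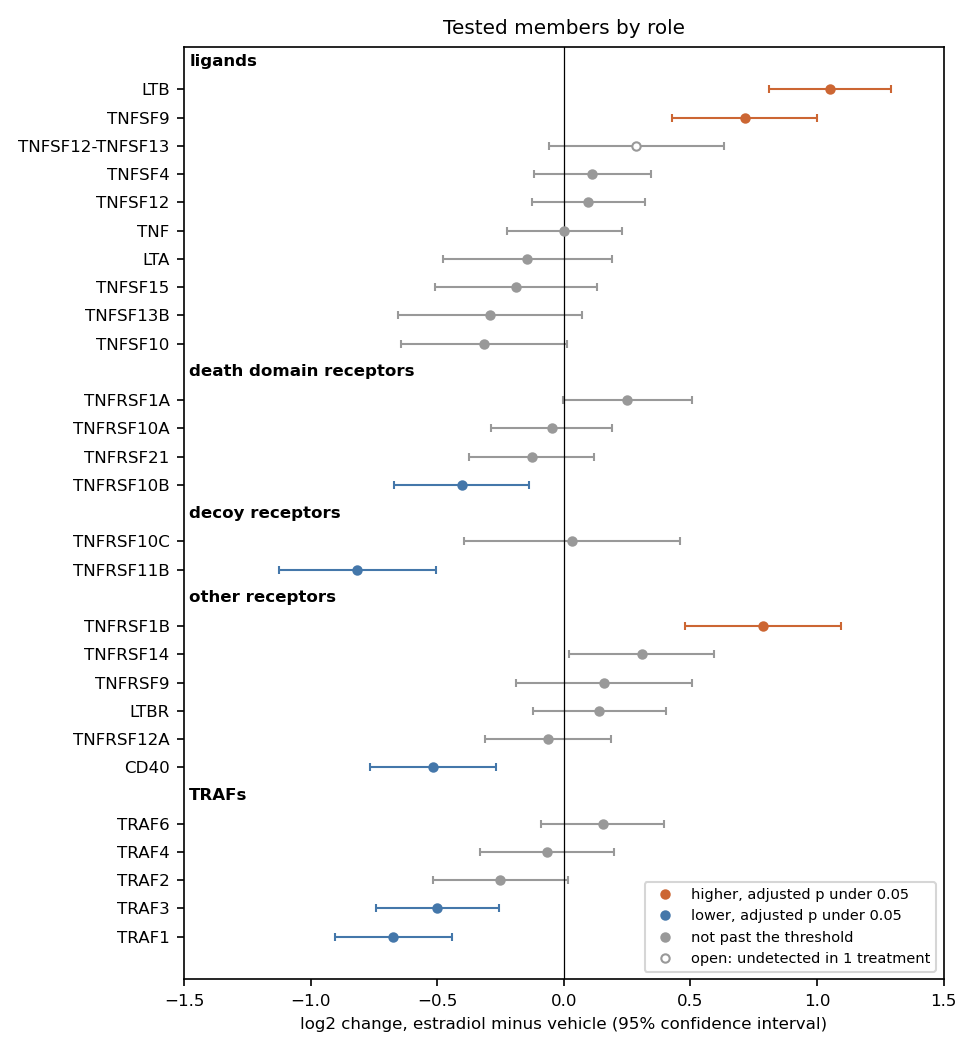
Log2 change (estradiol minus vehicle, horizontal axis) of the 27 tested genes by role, with 95% confidence intervals over 3 and 3 cultures. LTB, TNFSF9 and TNFRSF1B lie to the right and TNFRSF11B, TRAF1, CD40, TRAF3 and TNFRSF10B to the left at an adjusted p under 0.05, and the other 19 lie within 0.32 of no change. The open point is TNFSF12-TNFSF13, undetected in vehicle, whose fitted value is not a measured size.

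All 8 called genes had vehicle and estradiol cultures that did not overlap. The same held for 12 of the 27 tested genes (44.4%), against 42.8% of all tested rows. LTB was the 1 called gene of at least 2-fold, a size and call reached by 4.11% of all tested rows. The sizes depend on the background correction. With the background inferred from all rows, including those of several probes, the log2 changes were 1.42 for LTB, 0.18 for TNFRSF1B, 0.07 for TNFSF9, -0.18 for TNFRSF11B, -0.07 for CD40 and -0.06 for TRAF3, all past the threshold. They were -0.31 for TNFRSF10B and -0.03 for TRAF1, neither past it.

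**Figure D3:**
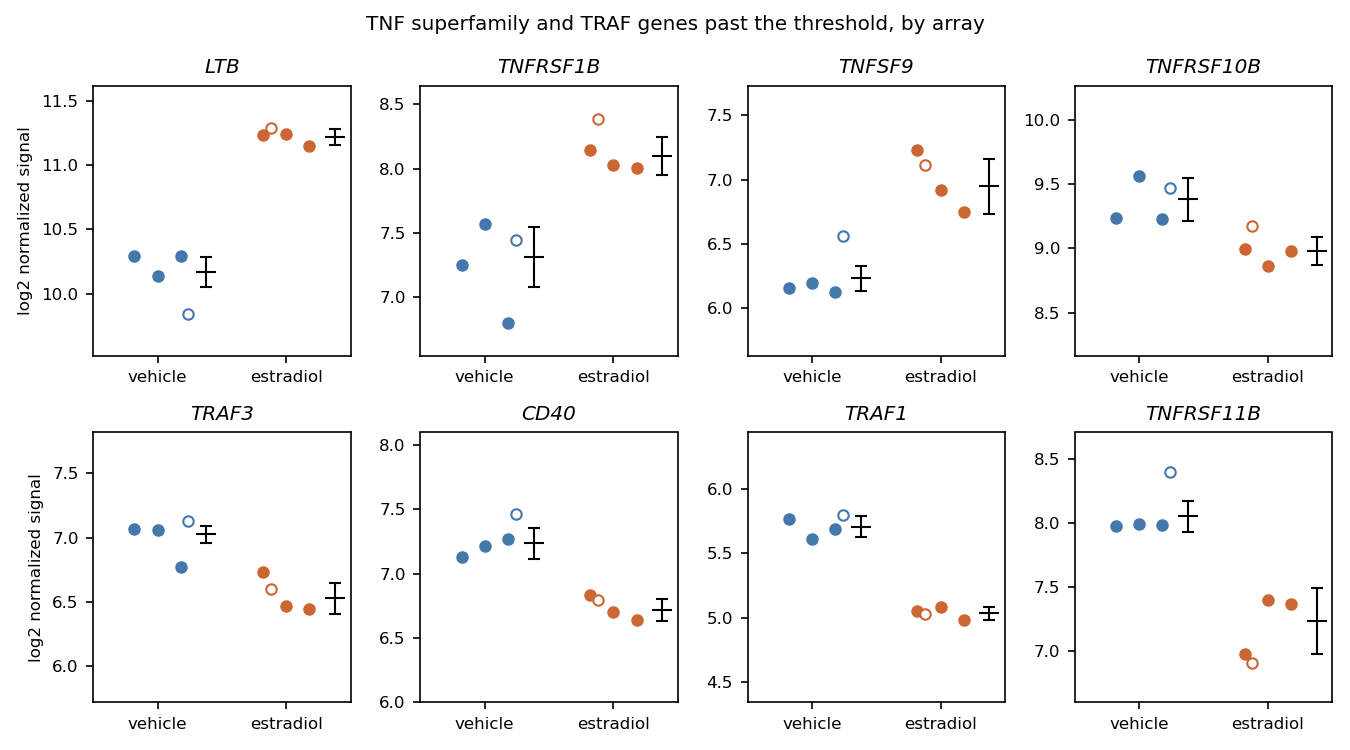
Log2 normalized signal (vertical axis, 2.1 units tall in each panel) of the 8 called genes on each array. Filled points are first RNA samples and open points repeat samples, bars give the mean and SD over 3 cultures, and in each panel the vehicle and estradiol arrays do not overlap.

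The regions before the start sites of 4 called genes are shown because NF-kB, AP-1 and oestrogen receptors are the factors usually considered for this family, and because the genes went in different directions. Of the 8 called genes 5 had a start-site entry. CD40, TNFRSF10B and TNFRSF11B, which all fell, had none and were not searched. Sequences are the 250 bases before the annotated start, 5′ to 3′ on the gene's strand, from RefSeq on GRCh38.p14, and capitals mark a match to the kB consensus. LTB lies on the minus strand at chr6:31582426-31582675, TNFSF9 on the plus strand at chr19:6530776-6531025, TNFRSF1B on the plus strand at chr1:12166741-12166990 and TRAF3 on the plus strand at chr14:102777199-102777448.
LTB: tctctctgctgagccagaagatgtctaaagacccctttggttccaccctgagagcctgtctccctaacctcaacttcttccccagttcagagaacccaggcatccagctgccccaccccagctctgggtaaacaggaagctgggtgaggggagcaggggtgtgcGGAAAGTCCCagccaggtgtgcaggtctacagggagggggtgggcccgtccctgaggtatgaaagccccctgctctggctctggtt
TNFSF9: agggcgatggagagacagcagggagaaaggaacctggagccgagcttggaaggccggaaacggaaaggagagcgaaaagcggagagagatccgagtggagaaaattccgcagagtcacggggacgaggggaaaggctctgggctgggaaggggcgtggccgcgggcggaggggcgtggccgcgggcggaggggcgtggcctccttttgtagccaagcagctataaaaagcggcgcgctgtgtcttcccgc
TNFRSF1B: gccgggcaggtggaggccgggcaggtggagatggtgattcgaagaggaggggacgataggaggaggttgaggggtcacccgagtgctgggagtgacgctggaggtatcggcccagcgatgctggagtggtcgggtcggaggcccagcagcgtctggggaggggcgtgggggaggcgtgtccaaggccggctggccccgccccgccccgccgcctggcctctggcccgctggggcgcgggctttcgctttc
TRAF3: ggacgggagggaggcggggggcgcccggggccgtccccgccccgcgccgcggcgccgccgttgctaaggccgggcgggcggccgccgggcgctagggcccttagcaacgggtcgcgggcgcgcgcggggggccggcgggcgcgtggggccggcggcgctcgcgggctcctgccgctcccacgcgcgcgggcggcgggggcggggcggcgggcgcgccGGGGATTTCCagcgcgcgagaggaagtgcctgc
The kB consensus was matched in LTB from 86 to 77 bases before the start, on the minus strand, and in TRAF3 from 33 to 24 bases before it. LTB rose and TRAF3 fell, so a match stood before genes of both directions. No match was found in the windows of TNFSF9 and TNFRSF1B, in any of the 3 start-site entries of TRAF1 or in that of TNF. Of 35116 windows of all genes 9.96% held the kB consensus. Of the 50 windows of the 36 family genes with an entry 12 (24%) held it, and the difference was not tested. Some of the 50 overlap, those of LTB and of TNFSF14 almost wholly, so the windows are not independent. The full oestrogen response element was in none of the 50 and in 0.0399% of all windows, and its single arm GGTCA was in 15 of the 50 (30%) and in 32.6% of all. TNFRSF1B, which rose, held that arm from 178 to 174 bases before its start. TRAF1, which fell, held it from 83 to 79 bases before 1 of its 3 starts. The AP-1 site TGANTCA was in 7 of the 50 windows (14%) and 6.57% of all, and the GC box GGGCGG in 31 (62%) and 42.6%. Among the windows shown TNFSF9 and TNFRSF1B held 2 GC boxes each, TRAF3 held 6, some of which overlap, and LTB none. Each motif was searched on both strands, and the arm is contained in the full element.

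Among the ligands, 10 of 18 were tested, of which LTB and TNFSF9 rose and 8 did not pass. Lymphotoxin beta holds lymphotoxin alpha at the cell surface in a mixed trimer that binds LTBR. LTB stood at log2 10.30, 10.14 and 10.30 on the first arrays of vehicle cultures 1, 2 and 3 and at 9.84 on the repeat array of culture 3. On estradiol arrays it was 11.24 and 11.29 for culture 1 and its repeat, 11.24 for culture 2 and 11.15 for culture 3. The vehicle repeat array was the lowest and the estradiol arrays lay close together, well clear of every vehicle array. The mean went from 10.17 ± 0.116 to 11.22 ± 0.061 (SD, n = 3 cultures each), a log2 change of 1.05 (SE 0.109, limma adjusted p = 5.93e-05). The fit with the chip as a block used single arrays, with those of 1 culture taken as correlated. That fit called 45.3% of all tested rows, against 27.7% in the values reported. The change of LTB was 1.12 with the chip as a block, 1.01 within the chip that held 5 arrays and 1.17 within the chip that held 3. In the last of these, with 1 estradiol array, it was not past the threshold (adjusted p = 0.0542, the highest over the alternatives, the lowest being 1.94e-07).

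LTB, TNF and LTA are neighbours in the gene table of GRCh38.p14, with TNF in the middle. TNF, the founding ligand of the family, was detected on all 8 arrays at 5.94 ± 0.0692 in vehicle and 5.95 ± 0.043 in estradiol (SD, n = 3). Its log2 change of 0.00 had a 95% interval of -0.23 to 0.23. LTA, which encodes lymphotoxin alpha, was at 6.49 ± 0.185 and 6.35 ± 0.261, and its change of -0.15 had an interval of -0.48 to 0.19. The interval of LTB, 0.81 to 1.29, lay above both. TNF and LTA were dim, with raw signals of 95.1 to 121 and 115 to 152, against 809 to 2687 for LTB. The offset added in processing shrinks the changes of dim genes, so the 3 changes are not like measures. The difference in change between these genes was not tested.

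TNFSF9 encodes the ligand of TNFRSF9 on activated T cells. Its vehicle values were 6.16 for culture 1, 6.19 for culture 2, and 6.13 and 6.56 for culture 3 and its repeat. Its estradiol values were 7.23 and 7.12 for culture 1 and its repeat, 6.92 for culture 2 and 6.75 for culture 3. Every estradiol array was above the highest vehicle array, the vehicle repeat coming closest. The mean rose from 6.23 ± 0.0993 to 6.95 ± 0.214 (SD, n = 3), a log2 change of 0.71 (SE 0.13, limma adjusted p = 0.00234), and was 0.82 with the chip as a block. Within the chips it was 0.77 with 5 arrays and 0.87 with 3, the latter not past the threshold. CD70, its neighbour in the gene table, was detected on 1 vehicle array.

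Of the ligands that did not pass, TNFSF10 encodes TRAIL, which kills many tumour cells. It stood at 8.63 ± 0.265 in vehicle and 8.31 ± 0.166 in estradiol (SD, n = 3), and the cultures overlapped. Its log2 change was -0.32 (limma adjusted p = 0.142). The vehicle repeat array was its highest, at 9.10 against 8.35 to 8.66 on the first vehicle arrays. Without vehicle culture 1 the change was -0.46 and with the chip as a block -0.56, each past the threshold. The fit with the chip as a block called 45.3% of all tested rows. TNFSF13B, the gene of the B-cell survival factor BAFF, was at -0.29 and TNFSF15, whose product binds the death receptor of TNFRSF25, at -0.19. Past the threshold were TNFSF13B at -0.47 without estradiol culture 1 and TNFSF15 at -0.36 without vehicle culture 2. TNFSF12, the gene of the ligand TWEAK, was at 0.10, with cultures that did not overlap, and TNFSF4, the gene of the OX40 ligand, at 0.11. The joined transcript TNFSF12-TNFSF13 was detected on no vehicle array and on 3 of 4 estradiol arrays. It did not pass, and no size is given because its estradiol mean of 5.28 did not exceed the mean of the weakest detected signals on vehicle arrays. It overlaps TNFSF12 and TNFSF13 in the genome, and signal that the 3 rows share cannot be told apart without the probes' positions.

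Receptors with a death domain were tested in 4 of 8 cases, of which TNFRSF10B fell and 3 did not pass. TNFRSF10B, a TRAIL receptor that can start apoptosis, was at 9.23, 9.56, 9.23 and 9.47 on the arrays of vehicle cultures 1, 2, 3 and the repeat of 3. It was at 8.998 and 9.17 for estradiol culture 1 and its repeat, 8.87 for culture 2 and 8.98 for culture 3. The arrays of the treatments did not overlap, but the gap between the nearest ones was small beside the spread within vehicle. The mean fell from 9.38 ± 0.165 to 8.98 ± 0.11 (SD, n = 3), a log2 change of -0.40 (SE 0.121, limma adjusted p = 0.0304). This call was lost without vehicle culture 2 (-0.31), vehicle culture 3 (-0.42), estradiol culture 2 (-0.35) or estradiol culture 3 (-0.41), and without the vehicle 3 repeat array (-0.36). It was also lost when arrays were centred on their medians (-0.23), within either chip (-0.39 with 5 arrays and -0.36 with 3), and in the other settings listed in the closing section.

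TNFRSF1A, which encodes the TNF receptor with a death domain, was at 10.12 ± 0.143 in vehicle and 10.37 ± 0.0868 in estradiol (SD, n = 3), without overlap of the cultures. Its log2 change of 0.25 did not pass (limma adjusted p = 0.132). It was 0.33 without vehicle culture 1 and 0.28 with the chip as a block, both past the threshold. The TRAIL receptor gene TNFRSF10A was at -0.05 (95% interval -0.29 to 0.19). TNFRSF21, the gene of a death-domain receptor found in neurons and many tumours, was at -0.13 (-0.37 to 0.12). TNFRSF25, set aside by the detection filter, stood at 6.30 ± 0.363 in vehicle and 6.83 ± 0.125 in estradiol (SD, n = 3), with overlapping cultures and no test.

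Decoy receptors were tested in 2 of 4 cases. TNFRSF11B encodes osteoprotegerin, which binds the RANK ligand and TRAIL. Its vehicle values were 7.98 for culture 1, 7.99 for culture 2, and 7.99 and 8.40 for culture 3 and its repeat. Its estradiol values were 6.98 and 6.91 for culture 1 and its repeat, 7.40 for culture 2 and 7.37 for culture 3. Every estradiol array was below every vehicle array, and culture 1 was lower than the other estradiol cultures on both of its arrays. The mean fell from 8.05 ± 0.121 to 7.24 ± 0.254 (SD, n = 3), a log2 change of -0.82 (SE 0.141, limma adjusted p = 0.00178). With the chip as a block it was -1.07, within the chip of 5 arrays -0.76 and within that of 3 arrays -1.21. It was past the threshold in all 24 alternatives, although at -0.18 with the background inferred from all rows. TNFRSF10C, a TRAIL decoy gene, was detected on 4 of 8 arrays and stood at 0.03 with a wide interval (-0.40 to 0.46). TNFRSF10D, another TRAIL decoy, was detected on 1 vehicle array. TNFRSF10A to TNFRSF10D are close in sequence and lie side by side in the gene table.

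The other receptors had 6 of 16 genes tested, with 1 higher, 1 lower and 4 not passing. TNFRSF1B encodes the TNF receptor that recruits TRAF2 and lacks a death domain. It was at 7.25 for vehicle culture 1, 7.57 for culture 2, and 6.80 and 7.45 for culture 3 and its repeat. It was at 8.15 and 8.39 for estradiol culture 1 and its repeat, 8.03 for culture 2 and 8.003 for culture 3. The vehicle arrays were spread more widely than the estradiol arrays, with the first array of culture 3 lowest, and no arrays of the treatments overlapped. The mean rose from 7.31 ± 0.231 to 8.10 ± 0.146 (SD, n = 3), a log2 change of 0.79 (SE 0.139, limma adjusted p = 0.00197). With the chip as a block it was 1.00, within the chip of 5 arrays 0.96 and within that of 3 arrays 0.80, the last not past the threshold.

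CD40 encodes the receptor through which T cells license antigen-presenting cells, and it is also found on many carcinomas. Its vehicle values were 7.13, 7.22 and 7.27 for cultures 1, 2 and 3 and 7.46 for the repeat of culture 3, and its estradiol values 6.84 and 6.79 for culture 1 and its repeat, 6.70 for culture 2 and 6.64 for culture 3. The vehicle repeat array was highest, and each estradiol array was below each vehicle array. The mean fell from 7.24 ± 0.121 to 6.72 ± 0.087 (SD, n = 3), a log2 change of -0.52 (SE 0.112, limma adjusted p = 0.00644). Centred on array medians it was -0.29 and not past the threshold, in a setting that moved the median change of all tested rows from -0.02 to 0.14. It was -0.52 with the chip as a block, -0.53 within the chip of 5 arrays and -0.46 within that of 3, the last again not past the threshold.

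TNFRSF14, whose product binds LIGHT, lymphotoxin alpha and the inhibitory receptor BTLA, was at 9.80 ± 0.103 in vehicle and 10.11 ± 0.209 in estradiol (SD, n = 3) without overlap. Its log2 change of 0.31 (95% interval 0.02 to 0.59) did not pass the adjusted threshold (limma adjusted p = 0.102). It passed with the estradiol repeat array averaged into culture 3 (0.35), with the chip as a block (0.53) and with arrays centred on their medians (0.47). The lymphotoxin beta receptor gene LTBR was at 0.14 (-0.12 to 0.40) and TNFRSF12A, the gene of the TWEAK receptor, at -0.06 (-0.31 to 0.19). TNFRSF9, the receptor gene for the ligand of TNFSF9, was detected on 7 of 8 arrays and stood at 0.16 (-0.19 to 0.51). TNFRSF19, detected on no array, had culture means of 4.55 in vehicle and 5.00 in estradiol, and a log2 change of 0.45 that was past the threshold when no detection filter was used. Its row combines several probes and lay below the weakest detected single-probe signal on all 8 arrays, so this change is not a measured size.

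TRAFs link receptors to kinases and ubiquitin ligases. Of the 7, 5 were tested, TRAF1 and TRAF3 fell and 3 did not pass. TRAF1 lacks the RING domain of its relatives and is itself a known NF-kB target gene. It was at 5.77, 5.61 and 5.69 for vehicle cultures 1, 2 and 3 and 5.80 for the repeat of 3, and at 5.05 and 5.03 for estradiol culture 1 and its repeat, 5.08 for culture 2 and 4.98 for culture 3. The arrays of each treatment lay close together and far from the other treatment. The mean fell from 5.71 ± 0.0828 to 5.03 ± 0.0507 (SD, n = 3), a log2 change of -0.67 (SE 0.104, limma adjusted p = 0.000897). With the chip as a block it was -0.68, within the chip of 5 arrays -0.62 and within that of 3 arrays -0.73, the last not past the threshold. The estradiol mean was below the weakest signal that a single probe had when detected (5.14 to 5.39 by array), and the row, which combines probes, was detected on 3 of 4 vehicle and 2 of 4 estradiol arrays. The size is therefore sensitive to background, at -0.34 when no background was removed and likewise at -0.34 from the authors' normalized table.

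TRAF3 together with TRAF2 and the inhibitors of apoptosis BIRC2 and BIRC3 keeps the kinase of MAP3K14 low, which holds back the non-canonical arm of NF-kB. Its vehicle values were 7.07 for culture 1, 7.06 for culture 2, and 6.77 and 7.13 for culture 3 and its repeat. Its estradiol values were 6.73 and 6.60 for culture 1 and its repeat, 6.47 for culture 2 and 6.45 for culture 3. The treatments did not overlap, but the first array of vehicle culture 3 was nearly as low as the highest estradiol array. The mean fell from 7.03 ± 0.0655 to 6.53 ± 0.121 (SD, n = 3), a log2 change of -0.50 (SE 0.11, limma adjusted p = 0.00711). It was not past the threshold without both repeat arrays (-0.42), centred on array medians (-0.29), or within the chip of 5 arrays (-0.41) or that of 3 (-0.36), and it was -0.35 with the chip as a block. TRAF2 was at -0.25 (95% interval -0.52 to 0.02), TRAF4 at -0.07 (-0.33 to 0.20) and TRAF6, which serves the IL-1 and Toll-like receptors, at 0.15 (-0.09 to 0.40).

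Set against each other, 29 textbook pairs of ligand and receptor can be formed within the family, and in 9 of them both genes were detected on all 8 arrays. In 5 of the 9 the change of 1 side passed the threshold and that of the other did not, and the difference between the sides was not tested. These were LTB with LTBR, TNF and LTA each with TNFRSF1B, and TNFSF10 with TNFRSF10B and with TNFRSF11B. In the other 4 neither side passed, namely TNF and LTA each with TNFRSF1A, LTA with TNFRSF14, and TNFSF10 with TNFRSF10A. The pairs share genes and are not independent. CD40 and TNFRSF11B fell in cells where the ligand genes CD40LG and TNFSF11 were not detected.

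**Figure D4:**
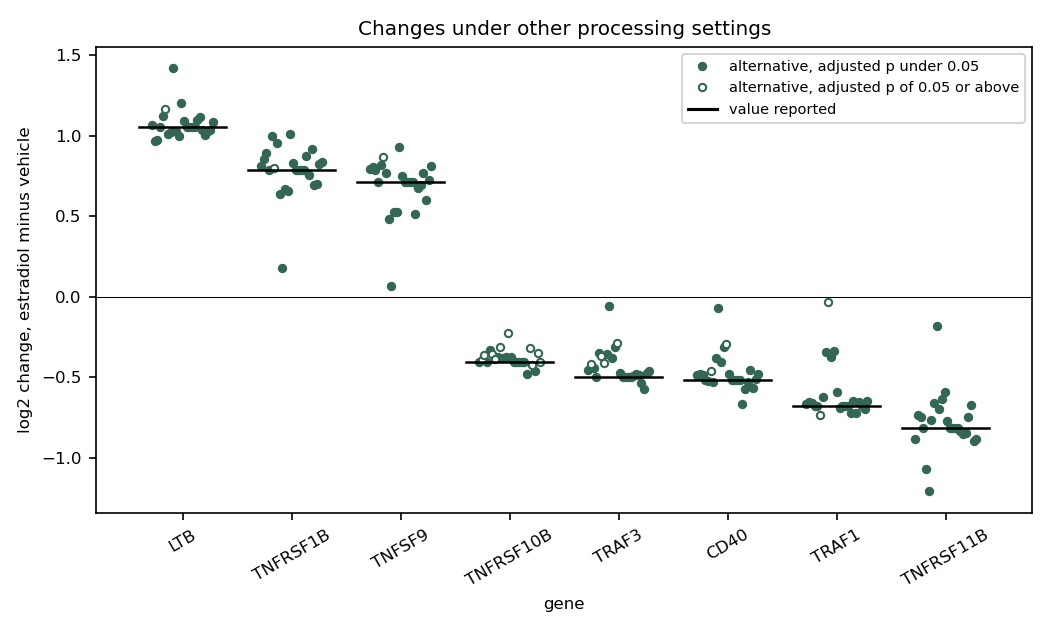
Log2 change (vertical axis) of the 8 called genes under each of the other processing settings, with the black line at the value reported. Open points have an adjusted p of 0.05 or above. All points of LTB, TNFRSF1B and TNFSF9 are above 0 and all those of the 5 lower genes below it, and TNFRSF10B has the most open points, 10 of 24.

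Further genes of the pathway, namely adaptors, NF-kB subunits, sheddases with other ligands and co-receptors, and TNF-induced genes, moved in both directions. Of 96 genes in these 4 lists 69 were tested, of which 13 were higher, 17 lower and 39 did not pass, a share of 43.5% beside the 27.7% of all tested rows. Without estradiol culture 2 the lower genes numbered 10, without estradiol culture 3 likewise 10, and without the vehicle 3 repeat array 13. Lower calls over all tested rows also fell in these 3 fits, from 1586 to 1010, 950 and 1302 in that order. The median log2 change of the 69 was -0.04. By list, 24.3% of tested adaptors were called, 66.7% of sheddases with other ligands and co-receptors, 50% of NF-kB genes and 73.3% of TNF-induced genes. The lists were drawn up with earlier results of these data known, and nothing particular to a list is read from its count.

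Of 37 tested adaptors and proximal signalling genes 2 were higher, 7 lower and 28 did not pass, with a median of -0.07. BIRC3, which encodes a ubiquitin ligase recruited by TRAF2, rose by 1.48 (SE 0.22) and CFLAR, which encodes the caspase-8 inhibitor c-FLIP, by 0.58 (SE 0.14). Among those that fell, NSMAF, which links the TNF receptor to neutral sphingomyelinase, was at -0.50, and IKBKE, an IKK-related kinase gene, at -0.56. FAF1, whose product binds FAS, was at -0.39. TIFA, a TRAF6-binding adaptor gene, was detected on all 4 vehicle arrays and on no estradiol array, at least 1.35-fold lower. Its detection p on estradiol arrays was 0.0143 to 0.0234, not far above the limit of 0.01. It is counted among the 7, but met the detection filter through the vehicle arrays alone, so no adjusted p is given. Besides BIRC3, the genes named with TRAF3 above were not past the threshold, with MAP3K14 at 0.34 (adjusted p = 0.0592, limma) and BIRC2 at 0.23. FADD was at 0.20 and RIPK1 at 0.14, neither past the threshold, and CASP8 and CASP10, both rows of several probes, were detected on no array.

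Of 9 tested sheddases, further ligands and co-receptors 4 were higher, 2 lower and 3 did not pass, with a median of 0.37. NTF3, the gene of neurotrophin-3, which can bind NGFR, was detected on no vehicle array and on all 4 estradiol arrays, at least 2.36-fold higher. It is counted among the 4, but met the detection filter through the estradiol arrays alone, so no p-value is given. GRN, which encodes progranulin, a reported binder of TNF receptors, rose by 0.63, and RTN4R, which encodes a partner of NGFR in neurons, by 0.53. ADAM17, the sheddase of TNF, fell by 0.48, whereas ADAM10, a related sheddase gene, rose by 0.49. BDNF, another neurotrophin gene, fell by 0.50, and its row combines probes and was detected on 1 of 4 vehicle and 3 of 4 estradiol arrays. NGFR itself was detected on no array.

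Of 8 tested NF-kB subunits and inhibitors 1 was higher, 3 lower and 4 did not pass. BCL3, an atypical IkB gene, rose by 0.90 (SE 0.11), and NFKBIZ, another, fell by 1.38 (SE 0.13). NFKB1 fell by 0.61 and NFKBIB by 0.40.

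Of 15 tested genes that TNF induces in many cell types 6 were higher, 5 lower and 4 did not pass, with a median of 0.04. A further 10 listed genes were not tested. Among them SOD2, a row of several probes detected on no array, had means of log2 9.84 in vehicle and 8.92 in estradiol. The falls were IL6 at -2.50, CXCL2 at -2.45, CXCL8 at -2.34, CXCL1 at -0.99 and the cytokine gene LIF at -0.33. The rises were the chemokine gene CX3CL1 (1.30), the ephrin gene EFNA1 (0.97), JUNB (0.73), CCL5 (0.63), GADD45B (0.52) and IRF1 (0.48). CXCL10, whose cultures did not overlap, was at 0.46 and did not pass (limma adjusted p = 0.0521), nor did ICAM1 (-0.05), TNFAIP2 (-0.06) and IER3 (0.04).

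**Figure D5:**
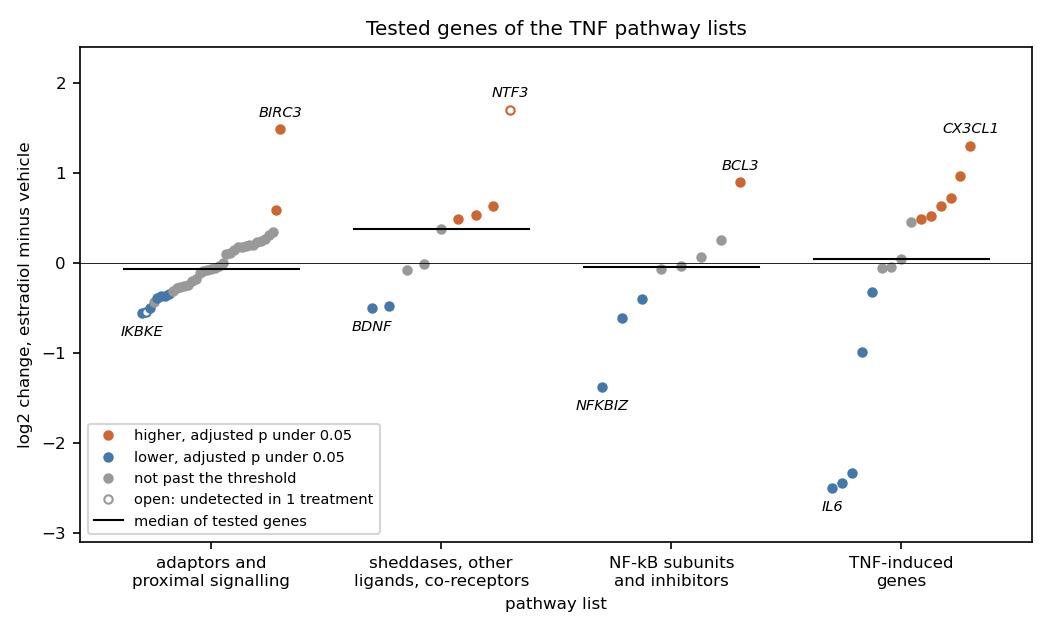
Log2 change (estradiol minus vehicle, vertical axis) of the 69 tested genes of 4 pathway lists, each point 1 gene and the black line the median of the list. The highest and lowest gene of each list is named, open points (NTF3 and TIFA) were undetected in 1 treatment and are fitted values, and medians lie between -0.07 and 0.37 while single genes reach -2.50 (IL6) on the lower side.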

How the data were processed

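Total RNA of 6 cultures on 8 Illumina arrays was measured. The authors deposited a signal intensity and, per the file headers, a detection p-value per gene row and array without normalization between arrays, and a second table of intensities that the authors normalized by a method that the sources do not state. The scanner software is likewise not stated. The number of arrays limits the precision.

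Work started from the first table, in R 4.3.3 with limma 3.58.1. Rows without a name (3266) were left out. Signals were corrected with normexp, with a background taken from the detection p-values of 24130 rows of 1 probe, those with p in whole multiples of 1 in 770 within 0.002. An offset of 16 was added, quantile normalization and log2 followed, and arrays of a culture averaged. The offset shrinks the changes of dim genes. For the estradiol repeat array, culture 1 in the title was followed over replicate 3 in the series text. Rows with detection p under 0.01 on at least 3 arrays were tested (11191) with lmFit and eBayes with treatment as the one term, and Benjamini-Hochberg adjustment ran over all of them at 0.05. A gene detected on no array of 1 treatment is given as a bound, or with no size where that bound is under 1-fold, set on each array by the weakest detected single probe, or by the gene's own value where that is higher. The fit was tested on simulated data.

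The members and lists were chosen with earlier results of these data known. Each tested member is named, and up to 4 genes in each direction of a pathway list by smallest p. Any other gene was picked with its values known. Older symbols were updated through the gene table of GRCh38.p14, in which all 96 pathway entries matched a row. Some genes of the marker and pathway lists are not reported here and were left out of their counts. Alternatives covered repeats, replicate number and chip as blocks, each chip, background, normalization, filter, variance model, array weights and each culture left out. The replicate numbers were not taken to pair the cultures.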

Additional observations from a re-analysis of the deposited data

How the results depend on the processing

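No called gene of the family changed direction in the alternatives run for it, which were 24, or 23 for TRAF1, whose row a stricter detection filter removed. The 8 calls were all shared with the fits without background correction, with an offset of 50, with the values the authors normalized, with cyclic loess, with trended robust variances and with the chip as a block. The last of these used single arrays and called 45.3% of all tested rows, against 27.7% in the values reported. Higher and lower members numbered 3 and 5 in the values reported. They were 5 and 6 with the chip as a block, 8 and 10 with array weights, in a fit that called 58.1% of all rows, and 0 and 1 within the chip of 3 arrays, where limma gave 3 and 2 at an unadjusted p under 0.05. Lower members numbered 3 without both repeat arrays, 3 within the chip of 5 arrays, 3 with the background inferred from all rows and 2 with median centring, in which 79.2% of all calls were rises against 48.9%. Leaving out each culture gave 3 to 4 higher and 4 to 6 lower, in fits that called 17.5% to 30.3% of all tested rows. Higher pathway genes numbered 13, and 20 with the chip as a block and 23 with array weights. Lower ones numbered 17, and 10 within the chip of 5 arrays and 7 with median centring. Leaving out each culture gave 9 to 15 higher and 10 to 14 lower. Fits within a chip have fewer arrays, and the cause of the other differences was not tested. TNFRSF10B also missed the threshold without both repeat arrays (-0.39) and with a background from all rows (-0.31).

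With the replicate block 3 members were higher and 5 lower, and 14 and 17 pathway genes. Deviations of same-numbered cultures from their group means correlated at 0.134, 0.134 and -0.0329. Vehicle cultures 1 and 2 correlated best with their own number and vehicle culture 3 did not. So few cultures cannot settle a pairing, and the numbers were not taken to pair the cultures.

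Of the 53 genes 26 were not tested because of their detection p, which limits what can be said of them, and without that filter TNFRSF19 would have passed.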
